A study of Mus musculus with 4 samples.

Results

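The genes described here are the DEAD and DEAH box RNA helicases measured in 32D-EpoR cells, chosen by name: every gene probe labelled Ddx or Dhx followed by a number, apart from Ddx58 and Dhx58. The array carried 50 such genes on 67 probes, and 48 genes on 65 probes were kept because a group had both of its arrays well above background, out of 17554 genes kept and 36316 on the array. All 48 in fact passed on all 4 arrays. Ddx4 and Ddx60 were not kept. The name in the file and the current gene differ for Ddx39, now Ddx39a, and for Ddx26b, now Ints6l. Ints6l resembles a subunit of the Integrator complex and is not a helicase, and it is kept in the counts because its printed name met the choice.

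32D is a mouse myeloid progenitor line that depends on interleukin 3, and the EpoR derivative carries an introduced erythropoietin receptor. Cells with Epo (2 arrays) and cells without Epo (2 arrays) had both been washed out of the WEHI-conditioned medium that supplies interleukin 3 and held in RPMI with 10% FBS. The Epo group then received Epo at 10 U/ml, while the other group received neither Epo nor WEHI medium. The experiment was done independently a second time with another passage of this single line, and the sources used here do not give the length of the Epo exposure. Total RNA was labelled with Cy3 and hybridised to Agilent 1-colour arrays.

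DEAD and DEAH box proteins use ATP to unwind short RNA duplexes or to strip proteins from RNA. Each usually serves 1 step of RNA metabolism, and many of the nucleolar ones are needed for the processing of ribosomal RNA and the assembly of ribosomal subunits. Others drive the spliceosome through its cycle, carry mRNA out of the nucleus, help ribosomes start translation or pass mRNA on to decay. Ribosome production is a major activity of growing blood progenitors.

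In all, 18 of the 48 genes were higher with Epo and 3 were lower (limma, adjusted p under 0.05 over all genes tested), while 27 did not pass. Among all genes tested, 13.1% were called higher and 14.3% lower. At an unadjusted p under 0.05 the counts were 24 higher and 6 lower (limma), against 19.2% and 23.5% of all genes. The median log2 change of the 48 genes was 0.45, against -0.06 for all genes tested, and 39 of the 48 had a positive change. Helicases of ribosome assembly made up 12 of the 18 called higher. The size of this split depends on the scaling between arrays, while higher calls outnumbered lower ones under each scaling tried. The 75th percentile of the signal, which was set equal on all arrays, was 347 and 454 units on the Epo arrays, against 224 and 250 on the arrays without Epo. With no scaling the median of all genes moved to 0.68, and 41 helicase genes were called higher and 0 lower (limma), with 0 lower at an unadjusted p under 0.05 as well. Of all genes tested, 46.9% were then called higher and 2.07% lower. With the percentile taken over detected probes only, the split was 15 higher and 5 lower, against 10.7% higher and 20.8% lower among all genes. All changes below are relative to the scaled arrays.

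**Figure D1:**
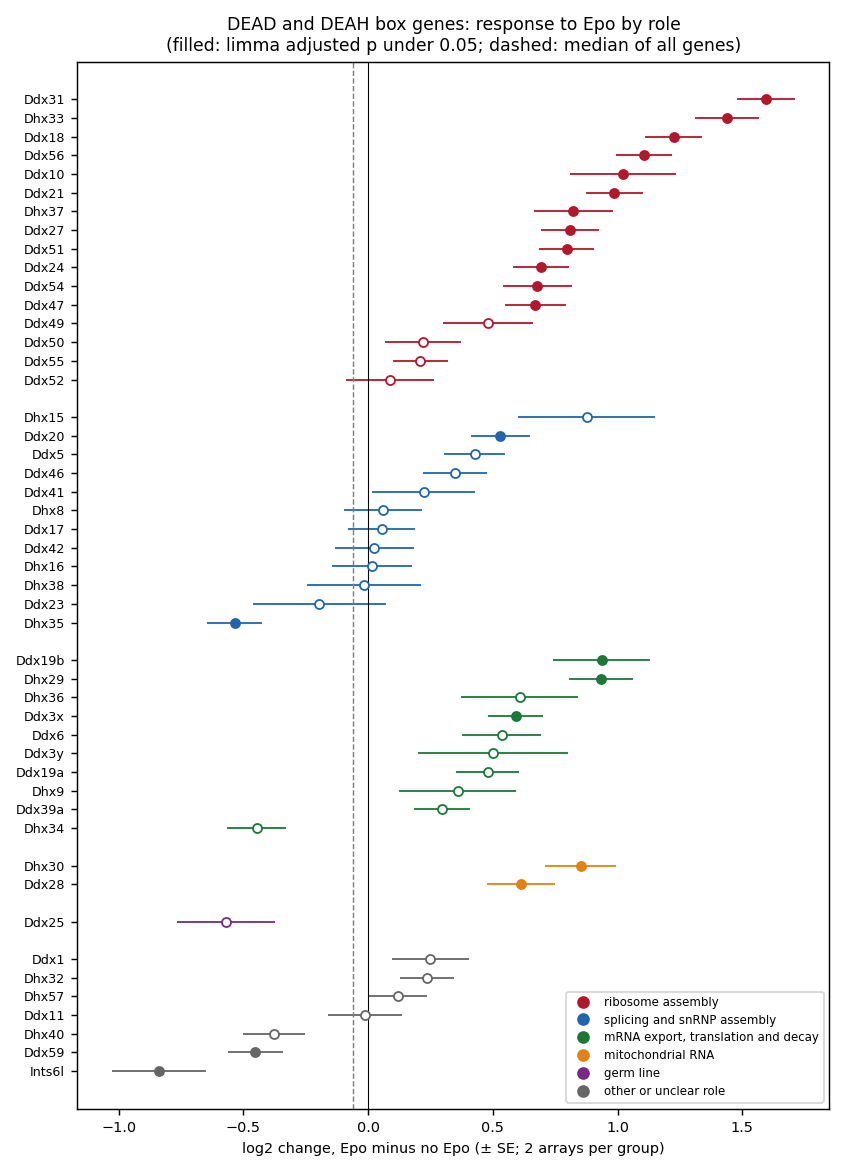
Log2 change (Epo minus no Epo, horizontal axis, ± SE, 2 arrays per group) of the 48 genes, grouped by role on the vertical axis. Filled points passed limma at an adjusted p under 0.05, and the dashed line marks the median of all genes tested at -0.06. The 16 ribosome assembly genes all lie to the right of 0, between 0.09 and 1.60, and the 12 splicing genes lie on both sides of it.

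Across the arrays, both Epo values lay above both values without Epo for 30 of the 48 genes and below them for 6, while 12 overlapped. Over all genes tested these shares were 30.4% above and 38.4% below. The difference taken within each replicate number had the same sign in both replicates for 47 of the 48, Dhx38 being the exception, with a median of 0.44 in replicate 1 and 0.40 in replicate 2. The SD between the 2 arrays of a group ran from 0.0033 to 0.454 log2 units for these genes, with a median of 0.114. In 38 of the 48 genes replicate 2 departed from replicate 1 in the same direction in both groups. The deviations of same-numbered arrays correlated at 0.81 over the 48 genes and at 0.386 over the 17554 genes tested, where the points share arrays and scaling. With the replicate number as a block, 26 of the 48 were higher and 4 lower (limma), against 19.9% higher and 23.2% lower among all genes. The p-values measure the spread between these samples, and an exact permutation test of 2 arrays against 2 cannot give a two-sided p below 0.333.

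Promoter stretches are shown first for some of the called genes: Ddx31 and Dhx33, with the largest rises, Ddx56 and Ddx51, Dhx37 and Dhx30, and Dhx35, which fell. All of these but Ddx31 hold a match, so they do not stand for the called genes as a whole. Ddx18 and Ddx21, which also rose, are not shown and had no match in their windows. The stretches are RefSeq sequences of GRCm38.p6, 5′ to 3′ on the gene's strand, and end at the base before the annotated start. Capitals mark matches, on either strand, to CACGTG (the E-box bound by Myc and related factors), CCGGAAG (a core that ETS factors bind) or TTCNNNGAA (the spaced palindrome that STAT factors bind; STAT5 is the main STAT downstream of the Epo receptor).
Ddx31 (chr2:28840326-28840405, plus strand): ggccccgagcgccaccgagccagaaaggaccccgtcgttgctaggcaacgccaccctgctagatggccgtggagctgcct
Dhx33 (chr11:71004433-71004512, minus strand): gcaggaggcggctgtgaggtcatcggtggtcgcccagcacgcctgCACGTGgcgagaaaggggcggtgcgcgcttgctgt
Ddx56 (chr11:6267730-6267839, minus strand): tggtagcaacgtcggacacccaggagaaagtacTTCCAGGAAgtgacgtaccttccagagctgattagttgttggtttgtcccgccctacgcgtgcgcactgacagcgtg
Ddx51 (chr5:110653341-110653450, plus strand): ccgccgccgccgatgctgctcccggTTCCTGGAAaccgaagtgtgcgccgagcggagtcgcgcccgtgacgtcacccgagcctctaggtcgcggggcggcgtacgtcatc
Dhx37 (chr5:125434049-125434158, minus strand): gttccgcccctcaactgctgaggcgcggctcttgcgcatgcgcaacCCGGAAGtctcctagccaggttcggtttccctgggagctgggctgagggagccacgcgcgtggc
Dhx30 (chr9:110117617-110117726, minus strand): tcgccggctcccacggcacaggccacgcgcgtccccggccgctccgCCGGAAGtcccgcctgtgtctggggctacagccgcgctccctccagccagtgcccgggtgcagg
Dhx35 (chr2:158794577-158794806, plus strand): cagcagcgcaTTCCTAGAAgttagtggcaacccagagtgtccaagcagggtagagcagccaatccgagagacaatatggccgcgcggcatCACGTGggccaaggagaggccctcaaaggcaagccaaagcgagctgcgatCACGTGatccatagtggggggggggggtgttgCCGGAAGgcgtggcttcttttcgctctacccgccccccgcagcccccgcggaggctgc

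A window of 250 bases before to 50 after the start was given for 43 of the 48 genes, and 5 had none. CACGTG stood in the windows of 6 of the 43, or 14.0%, against 11.7% of the 9507 tested genes with a window, and in 1 of the 18 helicases called higher. That 1 was Dhx33, where it began at position -35, counted from the start. Of all genes called higher with a window, 15.7% held it. CCGGAAG stood in 18 of the 43 helicase genes, or 41.9%, against 20.9% of tested genes, in 8 of the 16 ribosome assembly genes and in 6 of the 18 called higher. In both Dhx37 and Dhx30 it began at position -64. TTCNNNGAA stood in 4 of the 43, against 8.55% of tested genes, and those 4 were Ddx51, Ddx56, Ddx42 and Dhx35. Dhx35 thus held all 3 motifs and fell, while Ddx31 held none and had the largest rise. The matches are descriptions of these letters and no test was made on them.

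The 16 ribosome assembly helicases were the role with the most calls: 12 were higher with Epo, 0 were lower and 4 did not pass (limma), with a median log2 change of 0.80. At an unadjusted p under 0.05 the lower count was also 0 (limma). All 16 changes were positive, and in 14 of them both Epo arrays lay above both arrays without Epo. Over all genes tested, 30.4% lay above in this way and 38.4% below. The 32 genes of other roles had 6 higher calls, or 18.8%, and 3 lower calls, with a median of 0.24. Among all genes tested, 13.1% were higher and 14.3% lower. The difference between roles was not tested.

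Ddx31, a nucleolar helicase needed for ribosome assembly in human cells, measured 11.78 and 11.83 on the Epo arrays, against 10.16 and 10.26 on the arrays without Epo, as log2 scaled signal. Its groups lay far apart compared with the gap between replicates, and its log2 change of 1.60 ± 0.12 (SE) was the largest among the 48 (limma adjusted p = 0.00491), a 3.02-fold difference. The probe lies at chr2:28760626-28760685 on mm9, the build of the array's probe positions, and a second Ddx31 probe gave 1.47. No mm9 annotation was used, so the part of the transcript under each probe is not given.

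Dhx33, which in human cells promotes transcription of ribosomal DNA, measured 12.29 and 12.15 with Epo, against 10.85 and 10.71 without. The log2 change was 1.44 in each replicate pair, with an SE of 0.13 (limma adjusted p = 0.00627), at chr11:70797619-70797678. Its replicates differed by the same amount in both groups, so the groups stayed well apart.

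Ddx18, whose yeast counterpart Has1 acts in both ribosomal subunits, measured 12.49 and 12.59 with Epo, against 11.34 and 11.29 without. The change was 1.23 ± 0.12 (SE; limma adjusted p = 0.00663), and a second probe also gave 1.23. Those probes, at chr1:123450472-123450531 and chr1:123450470-123450529, cover 58 bases in common and differ at 4 of them, and the array file assigns each to 2 further predicted transcripts. The Ddx18 value is therefore uncertain, since it may include signal of near-identical copies.

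Ddx56, a nucleolar helicase of large-subunit assembly, measured 11.77 and 11.84 with Epo, against 10.69 and 10.71 without. Its change was 1.104 ± 0.11 (SE; limma adjusted p = 0.00732; probe at chr11:6159199-6159258). Ddx21, which couples ribosomal RNA transcription to its processing in human cells, measured 12.64 and 12.63 with Epo, against 11.69 and 11.61 without. Its change was 0.99 ± 0.11 (SE; limma adjusted p = 0.00897; probe at chr10:62044862-62044921), and its second probe gave 1.30. In both genes the replicates were almost on top of each other.

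Ddx10, whose yeast counterpart Dbp4 acts on early small-subunit precursors, measured 11.21 and 10.81 with Epo, against 10.18 and 9.80 without. The groups did not overlap, but the replicates stood about 0.4 apart in each group, with replicate 2 lower in both. The change was 1.02 ± 0.21 (SE; limma adjusted p = 0.0304; probe at chr9:52907067-52907126), and 0.0117 with the replicate block. Ddx10 lost its call when Epo replicate 1 or no_Epo replicate 2 was left out.

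The remaining called ribosome assembly genes rose by less than 1 log2 unit. Dhx37, whose yeast counterpart releases the U3 small nucleolar RNA, rose by 0.82 (limma adjusted p = 0.0257). Ddx27, which acts in 3′ end formation of ribosomal RNA in human cells, rose by 0.81 (limma adjusted p = 0.0138), and Ddx51, which helps release U8 from large-subunit precursors, by 0.80 (limma adjusted p = 0.0128). Ddx24 rose by 0.69 and Ddx54 by 0.68, both counterparts of yeast large-subunit factors, and Ddx47, a small-subunit factor, rose by 0.67 (limma adjusted p from 0.0173 to 0.0288). A second Ddx54 probe gave 0.64. Ddx27 lost its call without Epo replicate 1, and Ddx51 without either Epo array. Dhx37, Ddx24, Ddx54 and Ddx47 kept theirs when no_Epo replicate 2 was left out and lost them without any of the other 3 arrays.

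Ddx49, Ddx50, Ddx55 and Ddx52 did not pass, with changes of 0.48, 0.22, 0.21 and 0.09 (limma adjusted p from 0.118 to 0.734). All 4 have ribosome assembly roles by their yeast or human counterparts. Ddx49 was called higher with the replicate block (limma adjusted p = 0.0284), and the other 3 were not. With single arrays left out, between 5 and 11 of the 16 ribosome assembly genes were called higher, the fewest without Epo replicate 1. Ddx31, Dhx33, Ddx18, Ddx56 and Ddx21 kept their calls with each array left out in turn, and they were the only 5 of the 21 called genes to do so. Without the filter on dim probes limma called 0 of all genes, these 5 included, and 18 of the 48 helicase genes were higher and 2 lower at an unadjusted p under 0.05, against 6.96% and 12.7% of all genes.

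**Figure D2:**
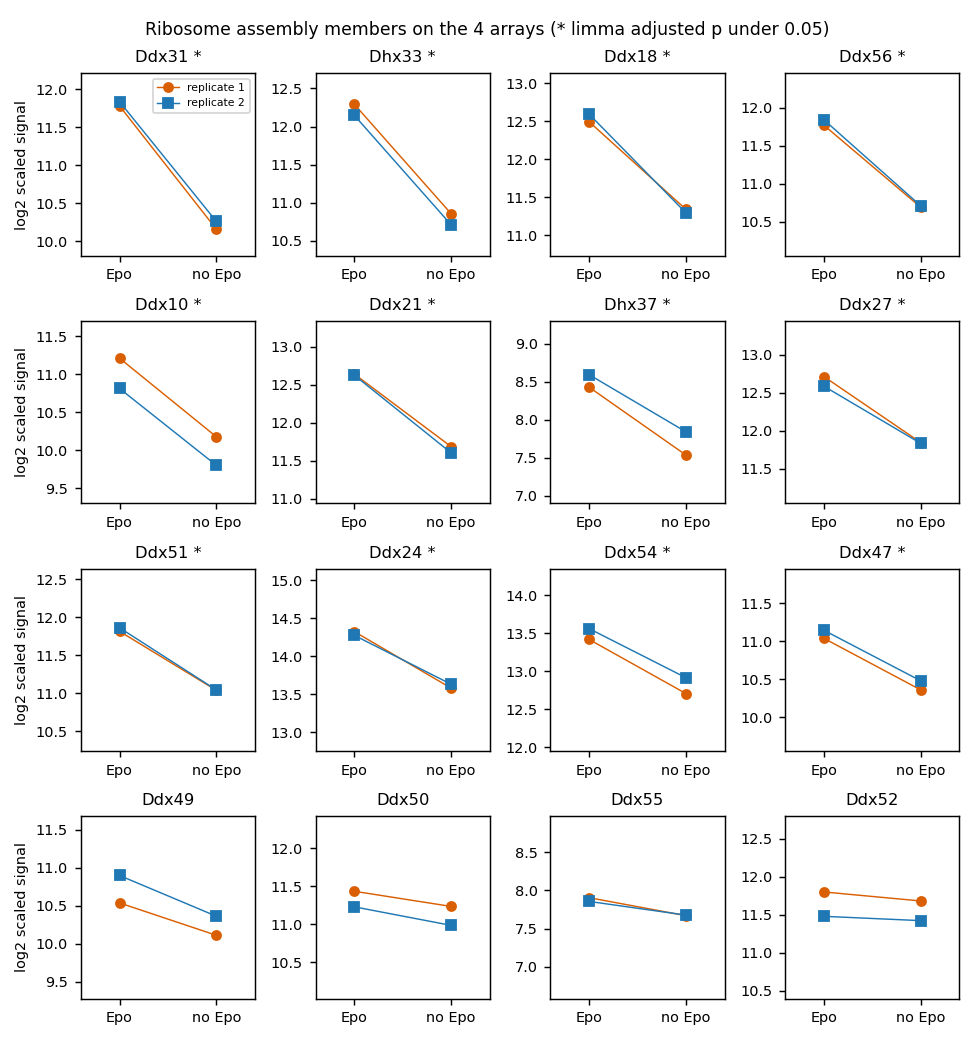
Log2 scaled signal (vertical axis, 2.4 units tall in each panel) of the 16 ribosome assembly genes on the Epo and no Epo arrays, with lines joining arrays of the same replicate number. Stars mark limma adjusted p under 0.05. Lines run downward from Epo to no Epo in every panel, steeply for Ddx31 (10.16 and 10.26 without Epo) and nearly flat for Ddx52 with a change of 0.09.

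**Figure D3:**
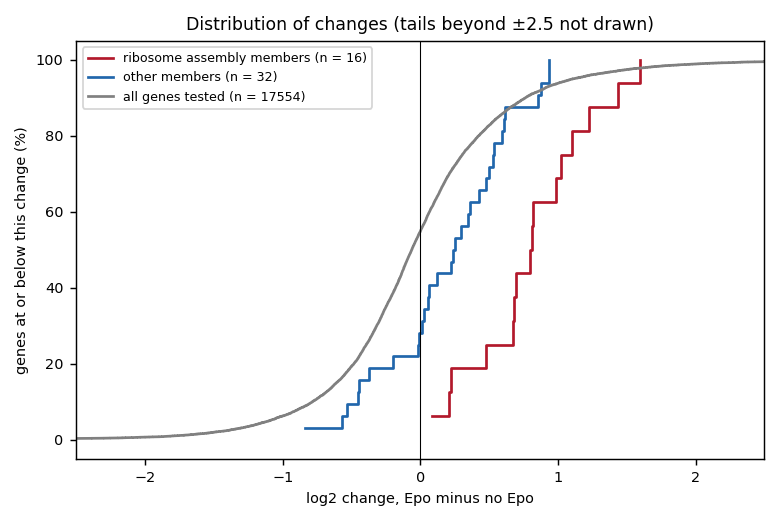
Cumulative percentage of genes (vertical axis) at or below each log2 change (Epo minus no Epo, horizontal axis) for the 16 ribosome assembly genes, the 32 other genes chosen and the 17554 genes tested. The medians lie at 0.80, 0.24 and -0.06, and the curve of the ribosome assembly genes starts at 0.09.

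Paralogous helicases did not all move by the same amount. Ddx21 and Ddx50 are paralogs on chromosome 10, with probes at chr10:62044862-62044921 and chr10:62084229-62087532. Ddx21 changed by 0.99 and Ddx50 by 0.22, a difference of 0.77, or 0.75 and 0.78 in the replicate pairs. Ddx19b and Ddx19a, with probes at chr8:113527116-113527175 and chr8:113499389-113499448, changed by 0.94 and 0.48, a difference of 0.46. A second kept Ddx19a probe gave 0.79, which is 0.14 below Ddx19b, so the gap between these paralogs depends on the probe. For Ddx3x and its Y-linked paralog Ddx3y, the changes of 0.59 and 0.50 were 0.09 apart. The differences between paralogs were not tested.

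Among the 10 helicases of mRNA export, translation and decay, 3 were higher with Epo, 0 were lower and 7 did not pass (limma), with a median change of 0.52. The shares over all genes tested were 13.1% higher and 14.3% lower. At an unadjusted p under 0.05, 6 had a positive and 1 a negative change (limma), against 19.2% and 23.5% of all genes. Ddx19b, which releases mRNA-bound proteins at the nuclear pore, measured 10.31 and 9.97 with Epo, against 9.37 and 9.04 without. The change was 0.94 ± 0.19 (SE; limma adjusted p = 0.0302). Replicate 2 was again the lower array in both groups, and the call was lost without Epo replicate 1 or no_Epo replicate 2.

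Dhx29, which helps the small ribosomal subunit scan structured leaders, measured 9.21 and 9.32 with Epo, against 8.42 and 8.25 without. Its change was 0.93 ± 0.13 (SE; limma adjusted p = 0.0125), on a probe that spans 2562 bases of chromosome 13 (chr13:113756813-113759374) and so crosses an intron. The call was lost without Epo replicate 2. Ddx3x, a helicase of translation initiation, rose by 0.59 (limma adjusted p = 0.0242), and its other probes gave 0.65 and 0.64, but the call was lost with any single array left out.

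Of the 7 that did not pass, 4 were called higher with the replicate block: Dhx36, which unwinds G-quadruplexes, Ddx6, a repressor and decay factor of mRNA, Ddx3y and Ddx19a. Their changes were 0.61, 0.53, 0.50 and 0.48 (limma adjusted p from 0.0538 to 0.268 without the block). With the block, 7 of the 10 genes of this role were higher and 1 lower (limma), against 19.9% and 23.2% of all genes. Ddx19a also passed with the mean over its probes, at 0.64 (limma adjusted p = 0.0293), and with quantile normalization, at 0.51 (limma adjusted p = 0.0442), but not with any single array left out (limma adjusted p from 0.0716 to 0.231). Dhx9 had a change of 0.36, but its groups overlapped and the replicate pairs gave 0.58 and 0.14. With the normexp background Dhx9 stood at 0.0445. Ddx39a, an mRNA export helicase, had a change of 0.30. Dhx34, a factor of nonsense-mediated decay, had a negative change of -0.45 (limma adjusted p = 0.0538, and 0.0302 with the replicate block).

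Of the 12 splicing helicases, 1 was higher, 1 was lower and 10 did not pass (limma), with a median change of 0.06. The share of higher calls, 8.33%, was below the 13.1% of all genes tested, of which 14.3% were lower. At an unadjusted p under 0.05, 4 had a positive and 1 a negative change (limma), against 19.2% and 23.5% of all genes. Ddx20 (Gemin3), which works with the SMN complex in building spliceosomal particles, rose by 0.53 (limma adjusted p = 0.0362), and its second probe gave 0.79. The call was lost with any single array left out. Dhx35, a component of catalytic spliceosomes, measured 10.66 and 10.68 with Epo, against 11.23 and 11.18 without. Its groups lay well apart, and it fell by 0.54 ± 0.11 (SE; limma adjusted p = 0.0306; probe at chr2:158683831-158683890), although it was at 0.21 without scaling and lost its call with any single array left out.

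Dhx15, the disassembly helicase of the spliceosome that also serves ribosome assembly, had the largest change among genes that did not pass. It measured 11.99 and 11.53 with Epo, against 11.19 and 10.58 without, a change of 0.88 ± 0.28 (SE; limma adjusted p = 0.079). Replicate 2 was lower in both groups, by 0.46 with Epo and by 0.61 without, and Dhx15 passed with the replicate block (limma adjusted p = 0.0147).

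Other helicases that remodel the spliceosome were Dhx8 at 0.06, Dhx16 at 0.01, Dhx38 at -0.02 and Ddx23 at -0.20. Ddx46, which acts at branch-point recognition, had 0.35, Ddx41 0.22 and Ddx42 0.03. None of these 7 passed (limma adjusted p from 0.114 to 0.966), and with the replicate block Ddx46 alone among them did (limma adjusted p = 0.043). A second kept Ddx46 probe gave 0.11, and the mean over its probes was 0.23 (limma adjusted p = 0.194). Ddx39b, the splicing and export helicase printed as Bat1a on the array, falls outside the choice by name, and its 3 kept probes gave 0.03, 0.23 and -0.04.

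Ddx5 and its paralog Ddx17 act in splicing and as transcription cofactors. The brightest Ddx5 probe gave 0.43 (limma adjusted p = 0.0632, and 0.0352 with the replicate block), and its other probes gave 0.15, -0.02 and -0.41. Those 4 probes lie between chr11:106641708-106641767 and chr11:106648225-106648284. The brightest Ddx17 probe gave 0.06 and the other -0.28. No direction can therefore be given for Ddx5 or Ddx17 as genes.

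Of the 14 genes with several kept probes, 3 had probes with both signs: Ddx5, Ddx17 and Dhx40. None of those 3 was called, and the probes of the 7 called genes with several probes (Ddx31, Ddx18, Ddx21, Dhx30, Ddx54, Ddx3x and Ddx20) all pointed up, while those of Ddx59, the called gene with several probes that fell, pointed down.

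**Figure D4:**
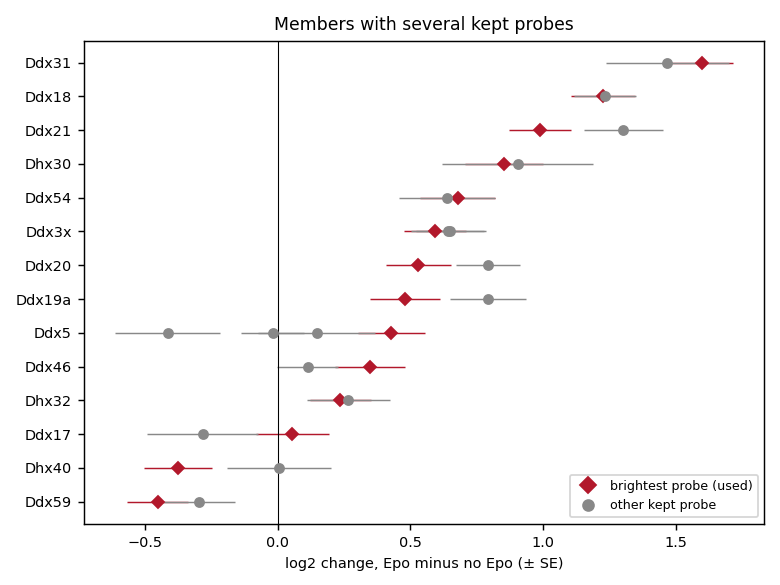
Log2 change (Epo minus no Epo, horizontal axis, ± SE) of each kept probe of the 14 genes with several probes. Diamonds are the brightest probe, which stands for the gene, and circles are the others. The 2 probes of Ddx18 coincide at 1.23, while the 4 of Ddx5 run between -0.41 and 0.43.

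Both helicases that act on mitochondrial RNA were higher with Epo, as were 13.1% of all genes tested. Dhx30, a factor of mitochondrial ribosome assembly and translation, measured 14.13 and 14.37 with Epo, against 13.33 and 13.46 without, and rose by 0.85 ± 0.14 (SE; limma adjusted p = 0.0188). Its second probe gave 0.90, and the call was lost without Epo replicate 2. Ddx28, a factor of the large mitochondrial ribosomal subunit, rose by 0.61 (limma adjusted p = 0.0358), a call that held without no_Epo replicate 1 and was lost without any of the other 3 arrays.

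Ddx25, a testis helicase of germ cell development, was the only germ line member kept. It measured 9.99 and 9.51 with Epo, against 10.37 and 10.26 without. The groups did not overlap, but the Epo arrays lay 0.48 apart, and the change of -0.57 ± 0.20 (SE) did not pass (limma adjusted p = 0.0965). The sign turned without scaling, at 0.18.

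Among 7 genes of other or unclear role, 0 were higher and 2 were lower (limma), with a median change of -0.01. The shares over all genes tested were 13.1% higher and 14.3% lower. At an unadjusted p under 0.05, 0 had a positive and 3 a negative change (limma), against 19.2% and 23.5% of all genes. Ints6l measured 11.16 and 10.77 with Epo, against 11.93 and 11.68 without, and fell by 0.84 ± 0.19 (SE; limma adjusted p = 0.0365; chrX:53760732-53760791). Ddx59, a helicase tied to palate and limb development, measured 8.01 and 8.04 with Epo, against 8.47 and 8.48 without, and fell by 0.45 ± 0.11 (SE; limma adjusted p = 0.0443; chr1:138336345-138336404).

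Both falls rest on the scaling: without it Ints6l had a change of -0.09 that did not pass, and Ddx59 stood at 0.29. Ddx59 lost its call with any single array left out, and Ints6l without Epo replicate 2 or no_Epo replicate 1. The others did not pass: Ddx1, part of the tRNA ligase complex, at 0.25, Dhx32 at 0.24, Dhx57 at 0.12, Ddx11, a DNA helicase of sister chromatid cohesion, at -0.01 and Dhx40 at -0.38.

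By printed symbol, with no motif read from a protein, 14 of the 33 genes with Ddx symbols were higher and 2 lower, with a median change of 0.48. These counts include Ints6l, printed as Ddx26b, and without it 14 of 32 were higher and 1 lower, with a median of 0.49. Of the 15 with Dhx symbols, 4 were higher and 1 lower, with a median of 0.24. The shares over all genes tested were 13.1% higher and 14.3% lower. Among the ribosome assembly genes only Dhx33 and Dhx37 have Dhx symbols, and both were higher. The counts by symbol were not split by role, so they mix symbol with role. The difference between the symbols was not tested.

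Helicases of the same superfamily under other symbols were counted beside them: 4 of 9 tested were higher and 0 lower (limma), with a median change of 0.36. The shares over all genes tested were 13.1% higher and 14.3% lower. At an unadjusted p under 0.05 the lower count was 0 there, 1 among the G-patch proteins below and 2 among the eIF4A and Ddx6 cofactors (limma). Of all genes tested, 23.5% were lower at that threshold. Supv3l1, a mitochondrial RNA decay helicase, rose by 0.92, Eif4a3, the exon junction helicase, by 0.70, and Eif4a1, the main initiation helicase, by 0.89 (limma adjusted p from 0.0109 to 0.019). Snrnp200, the helicase that unwinds U4 and U6, had -0.04 and did not pass. Of 19 G-patch proteins, a family whose members activate DEAH helicases such as Dhx15, 5 were higher and 0 lower, with a median of 0.25. Gpatch4, Nkrf and Pinx1, all nucleolar, rose by 1.57, 1.49 and 1.06 (limma adjusted p from 0.00532 to 0.00883). Of 17 MIF4G-type and other cofactors of eIF4A and Ddx6, 2 were higher and 0 lower, with a median of 0.14. That share of higher calls, 11.8%, is close to the 13.1% of all genes. Those called were Nom1, a nucleolar eIF4A3 partner, at 0.91 and Eif4g2, a translation initiation scaffold, at 0.75. Gle1, which activates the Ddx19 proteins at the nuclear pore, had 0.14 and did not pass.

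**Figure D5:**
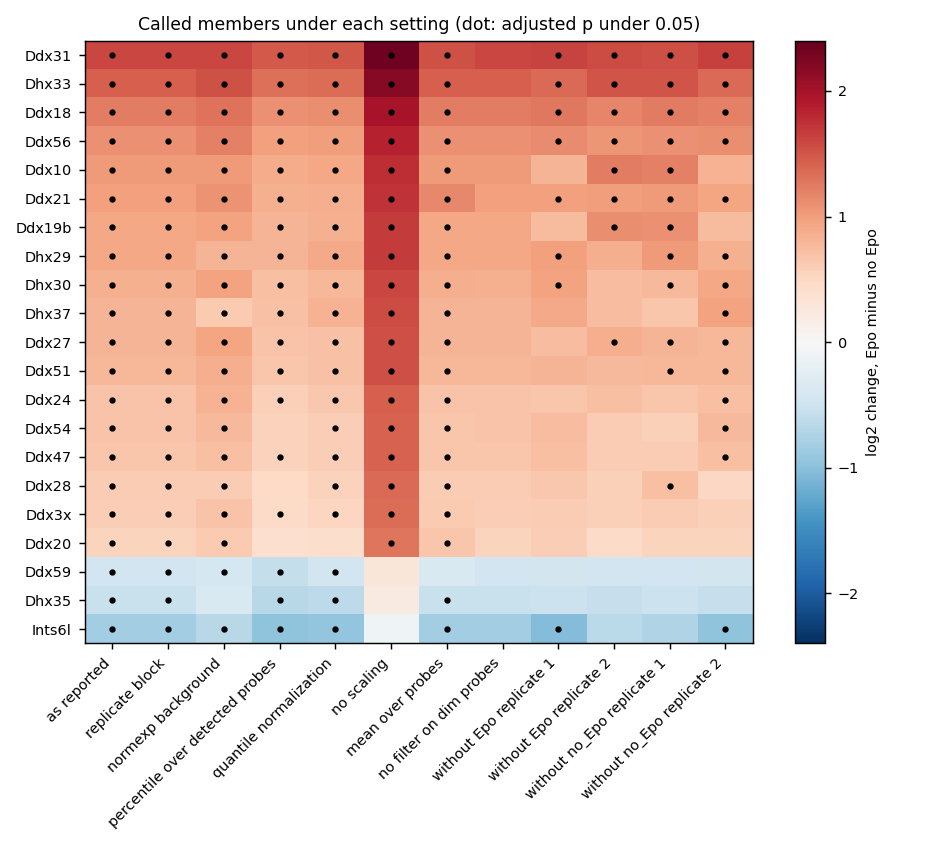
Log2 change (colour, Epo minus no Epo) of the 21 called genes (vertical axis) as reported and under each other processing choice (horizontal axis). Dots mark an adjusted p under 0.05 (limma). Ddx31 is red in every column, Ddx59 and Dhx35 turn from blue to pale red without scaling (0.29 and 0.21), and no dot stands in the column without a filter on dim probes.

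On the labelled cell type, 10 of 11 myeloid progenitor markers were kept, all but Kit, with a summed scaled signal of 160000 to 170000 with Epo, against 189000 to 193000 without. This sum rests mainly on Ctsg, the brightest (log2 16.40 and 16.57 with Epo, 16.72 and 16.75 without), which did not pass at -0.25. Cebpa alone of the 10 was called, at -0.74 (limma adjusted p = 0.0267), while 9 did not pass and 2 of the 10 changes were positive. None of the 5 stromal markers was well above background. Of the erythroid markers 4 of 7 were kept, with a sum of 8830 to 9210 with Epo, against 14000 to 16300 without. Among these 4, Epor changed by -1.60 and Gata1 by -0.68 (limma adjusted p = 0.0082 and 0.0231). Klf1 at -0.10 and Hba-a1 at -0.19 did not pass. Epor is also the receptor introduced into this line, so its signal cannot be taken as an erythroid marker. Of the macrophage markers 3 of 5 were kept, with 4440 to 4760 against 3550 to 3640. Of the lymphoid markers Cd3e alone of 6 was kept, with 196 to 209 against 385 to 520. The macrophage markers went opposite ways: Adgre1 rose by 1.03 and Csf1r fell by 0.79 (limma adjusted p = 0.00888 and 0.0138), while Cd68 had 0.08 and did not pass. The part of these marker differences in the helicase results was not tested. In bulk RNA, fewer cells of a type and less RNA per cell cannot be told apart.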

How the data were processed

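The authors deposited the files of 4 Agilent arrays as written by Feature Extraction 10.1.1.1 (200 ng RNA, oligo-dT primed), on 1 slide with 1 scan. The deposited processed intensity was background-subtracted and detrended within each array, per the file headers, and not scaled between arrays. A tool, limma, appears in the submitters' processing notes with no role. The number of arrays limits the precision.

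Here the log2 processed intensity was scaled to each array's 75th percentile over 59305 non-control spots. Outlier spots were removed (9 probes lost), and no spot was saturated. Probes well above background on both arrays of a group were kept (23734 of 55681), and each gene was represented by its brightest kept probe. Names came from a RefSeq table of GRCm38.p6, while probe positions are on mm9. Of all probes, 26413 were named through their accession, 3859 through the symbol and 734 through a synonym, while 24675 kept the file's name.

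Epo was compared with no Epo by limma 3.58.1 in R 4.3.3 (two-sided, Benjamini-Hochberg over 17554 genes, 2 residual degrees of freedom), tested on simulated data. Log2 changes had a median SE of 0.145. The helicases, roles and related lists were chosen with earlier results of these data known, and so were the promoters shown. All 48 genes are named. Values on all arrays are given for the 8 largest called rises, every called fall and the smallest p in each role otherwise without one. Dhx15 was added after its values were seen. Replicate numbers were read as the independent experiments, which the design text mentions without tying numbers to them. Same-numbered deviations correlated at 0.386 over all genes. No protein sequence or mm9 genome was used here.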

Additional observations from a re-analysis of the deposited data

How the results depend on the processing

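The counts of 18 higher and 3 lower helicase genes, 12 higher ribosome assembly genes and the median change of 0.45 were recomputed under 11 other choices. Without scaling, 41 were higher and 0 lower, the median was 1.20, and Dhx40 (0.37), Dhx35 (0.21), Ddx25 (0.18), Dhx38 (0.73), Dhx34 (0.30), Ddx59 (0.29), Ddx23 (0.55) and Ddx11 (0.73) turned positive. With the percentile over detected probes, 5 were lower, the median was 0.33, and Ddx17 (-0.0703), Ddx42 (-0.10), Dhx16 (-0.11), Ddx52 (-0.038), Dhx8 (-0.0645) and Dhx57 (-0.0066) turned negative. With quantile normalization the median was 0.40, Ddx42 (-0.0762), Dhx16 (-0.0922), Ddx52 (-0.0335) and Dhx8 (-0.038) turned negative, and Ddx11 (0.0942) positive. The normexp background gave a median of 0.51 and Dhx38 at 0.0482, and the mean over probes 0.42 and Ddx17 at -0.11. Without the filter on dim probes 36311 genes were tested and limma called 0 genes of any kind, with 0 helicases higher, 0 lower and 0 in ribosome assembly, a lowest adjusted p of 0.108, and 18 helicases higher and 2 lower at an unadjusted p under 0.05, against 6.96% and 12.7% of all genes. These 20 compare with 30 helicases at that threshold with the filter. The replicate block gave 26 higher, 4 lower and 13 in ribosome assembly, and lost no call. Leaving out 1 array, where the lone array is assumed to vary like the other group, gave 7 to 14 higher (7 without Epo replicate 1, 8 without Epo replicate 2), 0 to 1 lower, 5 to 11 in ribosome assembly and a median of 0.36 to 0.43. Over the same left-out arrays Ddx17 ran between -0.0391 and 0.15, Ddx42 between -0.10 and 0.15, Dhx16 between -0.11 and 0.14, Ddx52 between -0.0728 and 0.25, Dhx8 between -0.0773 and 0.20, Dhx38 between -0.31 and 0.28, Ddx23 between -0.49 and 0.10 and Ddx11 between -0.13 and 0.10. Of the 21 calls, 16 were lost with at least 1 array left out. Dhx35 also lost its call with normexp, Ddx59 with the mean over probes, Ddx20 with quantile normalization, and Ddx20, Ddx28 and Ddx54 with the percentile over detected probes. The cause of these changes was not tested, and leaving out an array also left fewer samples.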
